A study of Macaca mulatta with 95 samples.

Results

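Single cells taken just before and just after the first cavity forms in the rhesus macaque (Macaca mulatta) embryo were compared: 10 cells of the late morula (5 outer and 5 inner) and 11 cells of the early blastocyst (6 outer and 5 inner). They were chosen by stage, position and title letter, as all late morula cells carry the letter D and the early blastocyst cells used here the letter A, and they make up 21 of the 95 cells of the series. Per the labels' protocols the embryos came from in vitro fertilized oocytes of hormonally stimulated females and were cultured in HECM-9 medium with serum. Late morulae were taken near day 4.5 and early blastocysts, which have a small cavity, near day 5. Before the embryo was taken apart, a membrane dye (PKH2) stained the cells facing outward, and each dissociated cell was called outer or inner by its fluorescence. Each cell is its own amplified poly(A) RNA library, and no genotype, drug or other treatment separates the groups.

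The cavity of the mammalian blastocyst forms when the outer cells become a sealed, polarized epithelium, the trophectoderm, which pumps sodium and water inward. Tight junctions made of claudins close the epithelium, keratins KRT8 and KRT18 give it its filament network, and transcription factors such as CDX2, GATA2 and GATA3 mark its identity. The enclosed cells form the inner cell mass, which later divides into epiblast, the source of the embryo proper, and hypoblast, an extraembryonic layer.

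The labels name no embryo, animal or culture for any cell, so each of the 4 groups counts as 1 sample, no test was made, and each difference describes these cells. Values are RPKM, which divide a gene's reads by its length and by the cell's total, the SD is the spread from cell to cell, and log2 differences are early blastocyst minus late morula on the scale log2(mean RPKM + 1). Genes with a mean of 5 RPKM or more in at least 1 of the stages were taken as measured, and those whose means were 2-fold or more apart are called higher or lower. The stage and the letter cannot be told apart in these groups. Earlier-to-later comparisons inside one letter, which share no cell with the 4 groups, are therefore given beside the results: letter B from the 16-cell stage (3 outer and 2 inner cells) to the middle blastocyst (5 outer and 4 inner cells), and letter H from the early morula (5 inner cells) to the early blastocyst (2 inner cells).

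The median correlation of log2(RPKM + 1) over genes was 0.76 between letter D cells, 0.66 between letter A cells, 0.64 between D and A, 0.70 between D and B and 0.64 between A and B. It was 0.58 between D and 0.60 between A and the 5 inner early blastocyst cells of letters G and H, which were left out of the main comparison. Reads recovered from the step size of the values ran from 1.75 to 10.5 megareads per cell with a median of 6.82. The outer late morula cells were shallower, with a median of 3.47 megareads against 7.69 in outer early blastocyst cells. Some libraries stood apart: the outer blastocyst cell A-08 had the most genes at 1 RPKM or more (5250), outer A-10 the fewest (2358), and inner A-03 the fewest reads. The main counts were also taken without these 3 cells. Markers of cells that could contaminate an embryo culture were near 0: none of 9 cumulus and granulosa and none of 7 fibroblast genes reached a mean of 5 RPKM in any group. Of 7 blood genes only TYROBP did, with means of 354 and 58.0 RPKM in outer cells and 509 and 55.8 RPKM in inner cells, and of 8 sperm genes only TSSK6, in outer morula cell D-06 alone.

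In outer cells 1897 of 5301 measured genes (35.8%) were at least 2-fold higher in the early blastocyst and 1827 (34.5%) were lower, with a median log2 difference of 0.03. In inner cells 2029 of 5254 (38.6%) were higher and 1588 (30.2%) were lower, with a median of 0.24. Far fewer genes were 2-fold apart with no overlap between the cells of the stages. In outer cells 131 (2.47%) of these were higher and 275 (5.19%) lower, and in inner cells 145 (2.76%) were higher and 362 (6.89%) lower. Without the late morula cell D-01 the outer counts were 207 and 419, and without the blastocyst cell A-08 the lower count was 457. Fewer cells overlap less readily, so leaving cells out tends to raise these counts in either position. With 3 cells left out together (A-08, A-10 and inner A-03) the outer counts were 223 and 544 and the inner ones 209 and 475. In both positions 36 genes were higher and 54 lower without overlap, and 0 went opposite ways without overlap. Of the 4217 genes measured in both positions, 756 were higher in both, 676 lower in both, 253 higher in outer but lower in inner cells, and 275 the reverse. Rescaling the cells shifted the balance of directions. With median-of-ratios size factors 2412 genes were higher and 1543 lower in outer cells and 2269 and 1390 in inner cells. With factors from the 2512 genes above 0 in all 21 cells the counts were 2292 and 1594 in outer and 2413 and 1230 in inner cells. Inside the letters, 29% of measured genes were higher and 40.3% lower in letter B outer cells, 25.8% and 46.3% in letter B inner cells, and 21.4% and 41% in letter H inner cells.

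**Figure D1:**
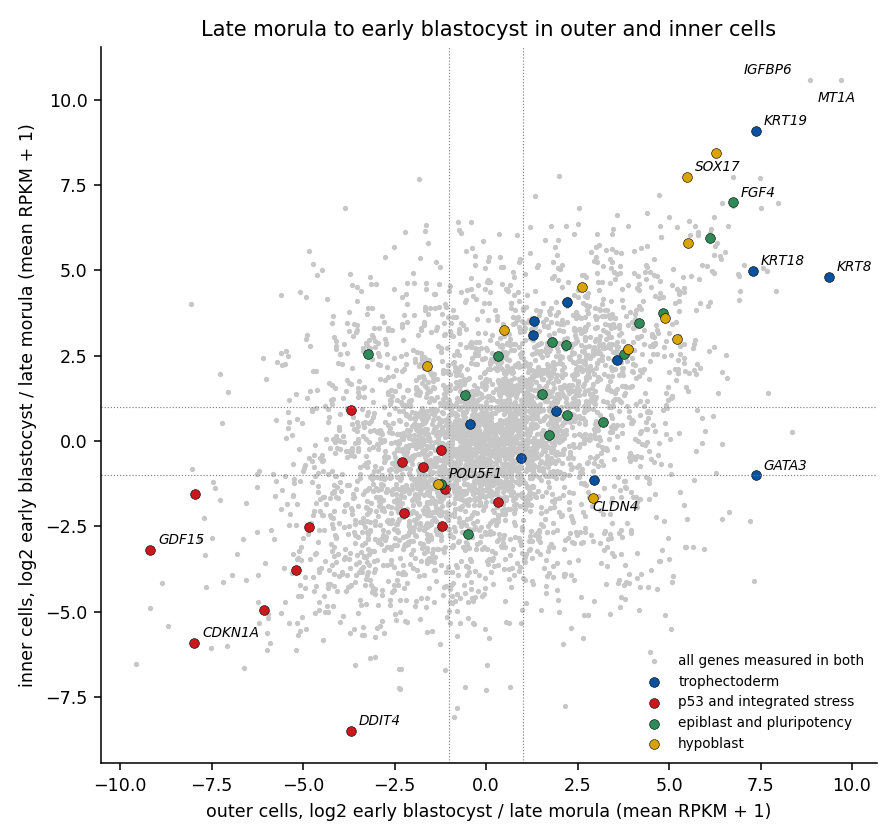
Log2 difference (early blastocyst minus late morula, mean RPKM + 1) in outer cells on the horizontal axis and inner cells on the vertical axis. Each grey point is 1 of the 4217 genes measured in both positions, coloured points are members of 4 gene lists, and dotted lines mark 2-fold. Most p53 and stress genes sit at lower left and the keratins at upper right. Where all late morula cells are at 0, as for FGF4 in inner cells, the position depends on the added 1 RPKM.

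The keratin filament genes KRT8 and KRT18 separated the stages in both positions. KRT8, a partner of KRT18 in simple epithelia, stood at 32.4, 3.66, 6.60, 7.00 and 4.43 RPKM in the 5 outer late morula cells. In the 6 outer early blastocyst cells it ran from 5258 to 12138 RPKM with a median of 7518, so every blastocyst cell lay far above every morula cell. The means were 10.8 ± 12.1 (SD, n = 5) and 7818 ± 2397 RPKM (n = 6), a log2 difference of 9.37, or 10.25 without morula cell D-01. KRT18 stood at 3.38, 5.42, 5.09, 2.69 and 331 RPKM in the outer late morula cells and at 5432 to 17299 RPKM (median 10977) in the outer blastocyst cells, again without overlap. Its log2 difference was 7.29, and 11.07 without the single morula cell with KRT18 above 6 RPKM, D-10.

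Inner cells showed KRT8 and KRT18 at lower blastocyst levels and with less distance between the stages. Inner KRT8 was 288, 80.6, 3.83, 13.2 and 447 RPKM in the late morula and 5470, 6305, 1157, 4999 and 5454 RPKM in the early blastocyst. Inner KRT18 was 113, 14.1, 1.65, 1.78 and 213 RPKM, then 2624, 4543, 879, 1768 and 1152 RPKM. Neither gene overlapped between the stages, with log2 differences of 4.80 and 4.98. Without inner morula cell D-10 these were 5.58 and 6.03. In the 5 inner early blastocyst cells of letters G and H, KRT8 was 8.15 to 759 RPKM and KRT18 9.69 to 901 RPKM. Within letter B, outer KRT8 went from a mean of 126 RPKM at the 16-cell stage to 20361 at the middle blastocyst. Within letter H, inner KRT8 went from a mean of 129 to 14.6 RPKM. For KRT8 every inner blastocyst cell of letter A lay above every one of letters G and H, whereas for KRT18 the lowest letter A cell lay within their range.

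The whole list of trophectoderm genes leaned the same way. Of 21 measured trophectoderm genes in outer cells, 16 were at least 2-fold higher and 1 (TFAP2A) lower, with a median log2 difference of 2.69 against 0.03 for all genes. In inner cells 9 of 14 were higher and 2 (GATA3 and PGF) were lower, the median being 3.31 against 0.24. Over all genes 35.8% of outer and 38.6% of inner were higher. Only 3 of the higher list genes in outer and 3 in inner cells had no overlap of cells. Without A-08, A-10 and A-03 the higher counts were 11 in outer and 10 in inner cells. The outer differences of OVOL1, PTGES, PLAC8 and VGLL1 fell below 2-fold without A-08, and that of PGF without A-10. Inner KRT7, CCR7 and CDX2 fell below 2-fold without A-05, A-07 and A-10 in turn. Within letters the outer and inner counts in B were 17 of 22 and 10 of 15 higher, whereas in H inner cells 0 of 11 were higher and 7 lower. Over all genes 29%, 25.8% and 21.4% were higher in these comparisons.

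GATA3, a transcription factor that drives trophectoderm genes, was at or below 0.55 RPKM in all 5 outer late morula cells. In outer blastocyst cells it was 418 RPKM in A-02, 281 in A-05, 238 in A-08 and 190 in A-10, but 0.54 in A-06 and 3.45 in A-09, so the groups overlapped. GATA2, its relative, reached 42.2, 193 and 38.2 RPKM in A-05, A-08 and A-10, and was below 1 RPKM in the other outer blastocyst cells. KRT19, a keratin of simple epithelia, had 242, 798, 1.87, 879, 23.9 and 423 RPKM in these 6 cells and no more than 3.71 RPKM in outer morula cells. Unlike KRT8 and KRT18, it had a larger log2 difference in inner cells, 9.08 against 7.38 in outer cells. Without inner A-05 the inner difference was 8.49, with an inner blastocyst mean of 813 RPKM against 1.26 RPKM in the inner late morula. CDX2, a master regulator of trophectoderm in the mouse, was sparse at both stages. It reached 84.3 and 19.3 RPKM in blastocyst cells A-05 and A-08 and 32.6 RPKM in morula cell D-01, and was below 0.5 RPKM in the other outer cells. Its log2 difference of 1.29 turned to -0.58 without A-05 and was 4.19 without D-01.

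EMP2, a membrane protein of epithelia, was 1.34, 96.3, 86.9, 46.9 and 5.83 RPKM in outer morula cells and 355 to 849 RPKM (median 550) in outer blastocyst cells, with no overlap and a log2 difference of 3.57. TEAD4, the DNA-binding partner of YAP1 in the Hippo pathway, was already at 75.5 to 404 RPKM in outer morula cells. It was 181 to 643 RPKM in outer blastocyst cells, with overlapping cells. Inner TEAD4 had means of 345 ± 172 and 242 ± 199 RPKM (n = 5 each). YAP1, the coactivator that the pathway controls, was below 1 RPKM in 19 of the 21 cells, with 15.9 RPKM in outer A-08 and 35.4 RPKM in inner A-07. Of the Hippo genes, NF2, which encodes the tumour suppressor Merlin, was the one whose stages did not overlap, and this held in both positions. Outer NF2 was 19.7, 114, 10.3, 60.0 and 60.1 RPKM, then 0.21 to 3.85 RPKM (median 0.92). Inner NF2 was 41.6, 32.8, 43.9, 93.9 and 37.9 RPKM, then 0.33, 29.1, 0.31, 0.71 and 21.2 RPKM. The outer log2 difference was -4.48 and the inner one -2.17, or -2.94 without inner A-05. It was lower within the letters too, with log2 differences of -1.13 and -1.50 in B and -2.70 in H.

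**Figure D2:**
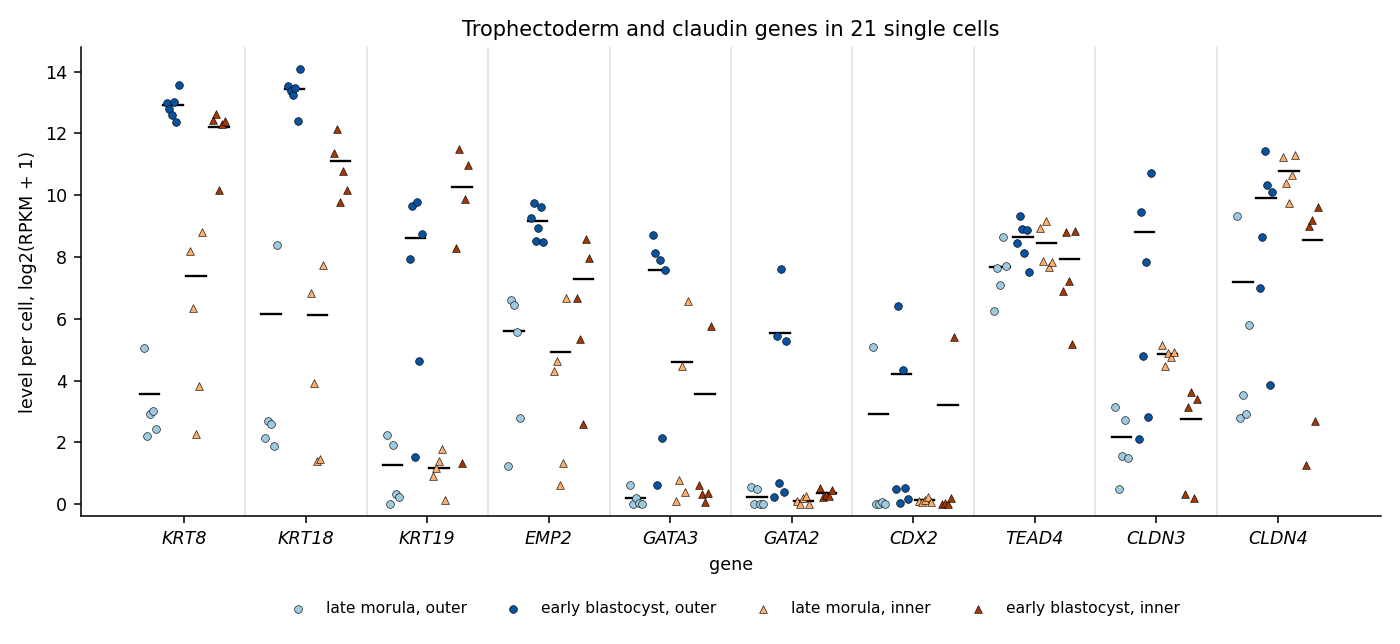
Level of 10 trophectoderm and claudin genes in each of the 21 cells, as log2(RPKM + 1), by stage (pale, late morula; dark, early blastocyst) and position (circles, outer; triangles, inner); black bars mark the log2 of the mean RPKM + 1. KRT8 and KRT18 separate the stages in both positions, while GATA3, GATA2 and CDX2 split the outer blastocyst cells, and CLDN4 differs in direction between the positions.

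Of the claudins, CLDN3 and CLDN4 differed in direction between outer and inner cells, whereas CLDN15 was lower in both. CLDN4, a tight junction strand protein, was 646, 5.90, 10.5, 6.59 and 55.0 RPKM in outer morula cells and 13.4 to 2759 RPKM (median 755) in outer blastocyst cells, with overlap. The outer log2 difference was 2.71, or 5.54 without D-01. In inner cells CLDN4 was 2426, 1343, 848, 1610 and 2526 RPKM in the late morula and 1.39, 511, 587, 5.41 and 781 RPKM in the early blastocyst, lower in every cell, with a log2 difference of -2.21. CLDN3 was likewise 3.51 ± 3.07 and 444 ± 669 RPKM in outer cells (log2 difference 6.63, or 5.43 without A-10) and 28.0 ± 4.75 and 5.81 ± 5.27 RPKM in inner cells (-2.09). With the inner cells of letters G and H added, the inner difference of CLDN3 was 1.06, the opposite direction, and that of CLDN4 was -2.08. Within the letters inner CLDN3 had log2 differences of 5.53 in B and -0.62 in H, and inner CLDN4 6.64 in B and 1.52 in H, so the lower inner CLDN4 was not seen in either. The difference between positions was not tested. TJP1, the scaffold protein ZO-1, was low throughout, at 0.41 to 7.16 RPKM and then 0.10 to 24 RPKM in outer cells, and at 2.35 to 32.3 RPKM and then 0.20 to 6.97 RPKM in inner cells. Its log2 differences were 1.21, or 0.32 without A-02, and -2.05, the latter -0.56 with letters G and H added. Of all measured tight junction genes 4 of 7 were higher and 0 lower in outer cells, against 35.8% and 34.5% of all genes. In inner cells 1 of 6 was higher and 4 lower, against 38.6% and 30.2%. Within letters 5 of 7 were higher and 0 lower in B outer cells and 5 of 8 higher and 2 lower in B inner cells. In H inner cells 2 of 7 were higher and 3 lower. Between the late morula and the early blastocyst the 4 higher outer genes all had overlapping cells. The outer log2 difference of CLDN7, 3.27, was 0.65 without A-08. CXADR, the inner gene that was higher, had a log2 difference of 1.04, or 0.74 without D-07.

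PERP, a desmosome protein, was higher without overlap in both positions. It was 65.0, 0.14, 61.4, 0.32 and 0.33 RPKM in outer morula cells and 75.7 to 313 RPKM (median 221) in outer blastocyst cells. Inner PERP was 29.5, 54.0, 0.15, 0.06 and 0.16 RPKM, then 87.4, 249, 115, 336 and 328 RPKM. The log2 differences were 2.97 and 3.66, and 3.65 and 4.73 without outer D-01 and inner D-04. EPCAM, an epithelial adhesion molecule, was at most 1.59 RPKM in 4 outer morula cells and 51.5 RPKM in D-10, against 87.2 to 282 RPKM in 5 outer blastocyst cells and 6.50 RPKM in A-10. CDH1, the E-cadherin of adherens junctions, was 0.91 to 15.6 RPKM in outer morula cells and 0.45 to 41.0 RPKM in outer blastocyst cells, with a log2 difference of 1.10 that was 0.63 without A-05 and 0.89 with median-of-ratios size factors. Inner CDH1 was 28.9 to 97.8 RPKM in the late morula, whereas 4 of 5 inner blastocyst cells were below 1 RPKM and A-10 had 115 RPKM. Of the adherens junction and desmosome list 7 of 9 genes were higher and 0 lower in outer cells, against 35.8% and 34.5% of all genes. In inner cells 7 of 12 were higher and 2 lower, against 38.6% and 30.2%. Within letters 9 of 12 were higher and 1 lower in B outer, 3 of 7 higher and 2 lower in B inner, and 3 of 13 higher and 2 lower in H inner cells. Some inner differences between the late morula and the early blastocyst rest on 1 cell. That of CDH2 went from 3.20 to -0.03 without A-08. Without A-03 JUP went from 1.42 to 0.37 and CTNNA1 from 1.44 to 0.18. The lower PKP3 went from -2.73 to -0.67 without D-08.

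The pump and channel genes did not move as a block. ATP1B1, a regulatory subunit of the sodium pump, was at most 9.68 RPKM in outer cells of either stage, and 58.3 RPKM in inner A-10 against at most 0.35 RPKM in all other inner cells. ATP1B3, another regulatory subunit, was 186, 684, 58.1, 55.0 and 47.2 RPKM in outer morula cells and 2.49 to 92.2 RPKM in outer blastocyst cells. Its outer log2 difference was -2.31, or -1.07 without D-03, and its inner one 1.14, or 0.47 without A-08. AQP3, a water and glycerol channel, was above 60 RPKM in 3 of 5 outer morula cells and at most 39.4 RPKM in outer blastocyst cells. The AQP3 log2 differences were -3.62 in outer cells (-5.27 without A-08) and -2.66 in inner cells (-4.71 without A-10), and it was lower within letters B (-5.14 and -3.82) and H (-4.43). SCNN1A, a subunit of the epithelial sodium channel, was listed at 0 in all 5 outer morula cells and stood at 40.3, 6.85, 0.40, 41.3, 11.3 and 0.25 RPKM in the outer blastocyst cells. No fold is given against a group listed at 0. Several inner differences rest on 1 cell. Without A-10 those of AQP11 and FXYD3 fell from 3.35 and 4.12 to -0.35 and 0.94, and without A-03 that of CLIC1 from 1.39 to 0.96. Of the ion and water transport list 5 of 9 genes were higher and 3 lower in outer cells, against 35.8% of all genes higher. In inner cells 10 of 13 were higher, 0 of them without overlap, and 1 lower, against 38.6% of all genes higher. Within letters 6 of 11 were higher and 3 lower in B outer, 5 of 11 higher and 4 lower in B inner, and 2 of 12 higher and 6 lower in H inner cells.

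ACTB, cytoskeletal actin, was higher without overlap in both positions. It was 6561, 5151, 1742, 2025 and 4629 RPKM in outer morula cells and 18099 to 45734 RPKM (median 25583) in outer blastocyst cells. Inner ACTB was 12802, 5835, 5145, 9052 and 11654 RPKM, then 20445, 41327, 16840, 44750 and 52206 RPKM. Log2 differences were 2.78 and 1.98. Within letter B they were 3.15 and 2.50, and within letter H -1.16. GAPDH, a glycolytic enzyme, had outer means of 4217 ± 1208 and 3875 ± 1300 RPKM and inner means of 3065 ± 1028 and 2400 ± 908 RPKM, with overlap. Of the polarity and apical domain genes 7 of 15 were higher and 3 lower in outer cells, against 35.8% and 34.5% of all genes. In inner cells 10 of 15 were higher and 3 lower, against 38.6% and 30.2%. Some inner differences rest on 1 cell. PARD6A went from 4.21 to 0.72 without A-10, RDX from 1.12 to -0.41 without A-07 and MYH9 from 1.60 to 0.57 without A-08. Within letters 5 of 14 list genes were higher and 1 lower in B outer, 3 of 15 higher and 5 lower in B inner, and 5 of 19 higher and 3 lower in H inner cells. The myosin light chain MYL12A was the member without overlap in both positions, with outer means of 3.23 ± 2.36 and 37.3 ± 41.4 RPKM and inner means of 2.31 ± 1.52 and 17.6 ± 10.7 RPKM. The outer log2 difference was 3.18, or 2.37 without A-05, and the inner one 2.49.

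POU5F1, the pluripotency factor OCT4, was among the most abundant transcripts at both stages and lower in the blastocyst. It was 6096, 9697, 7814, 6037 and 8246 RPKM in outer morula cells and 1523 to 5745 RPKM (median 3055) in outer blastocyst cells. Inner POU5F1 was 7017, 6274, 8052, 7888 and 10064 RPKM, then 4394, 2614, 2311, 3447 and 3553 RPKM. No cell overlapped, and the log2 differences were -1.23 and -1.27, alike in both positions. They depend on the scaling: with median-of-ratios size factors they were -0.19 and -0.84, and with factors from genes above 0 in all cells -0.56 and -0.76, all under 2-fold. These scalings moved the median of all genes to 0.75 and 0.56 in outer cells and to 0.62 and 0.81 in inner cells. POU5F1 stayed below that median under each scaling, but scaling shifts both together, so this is not a separate check.

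Other pluripotency genes were higher. Of the epiblast and pluripotency list, 13 of 18 measured genes were higher and 2 lower (POU5F1 and SOX2) in outer cells, with a median of 2.20, and 13 of 19 were higher and 3 lower (POU5F1, KLF17 and ESRRB) in inner cells, with a median of 2.54. Over all genes 35.8% were higher in outer and 38.6% in inner cells. Without inner A-03 the inner count of higher list genes was 8. In letter B outer cells 4 of 15 list genes were higher and 7 lower, near the 29% and 40.3% of all genes. In B inner cells 12 of 23 were higher and 5 lower, against 25.8% and 46.3% of all genes. In H inner cells 7 of 15 were higher and 4 lower, against 21.4% and 41%. DPPA2, a chromatin protein of pluripotent cells, separated the stages in both positions. It was 1.01, 0.34, 44.7, 0.77 and 35.7 RPKM in outer morula cells and 196 to 1173 RPKM (median 391) in outer blastocyst cells. Inner DPPA2 was 60.4, 6.92, 133, 0.32 and 0.30 RPKM, then 1223, 231, 666, 343 and 283 RPKM. Its log2 differences were 4.84 and 3.74, and 5.58 and 4.94 without outer D-05 and inner D-07. NANOG, a core pluripotency factor, was uneven: in outer blastocyst cells it ran from 1.32 to 292 RPKM (median 36.7) and in inner ones it was 334, 2.77, 40.8, 1.06 and 76.9 RPKM. Its log2 differences of 2.18 and 2.80 were 1.11 and 1.24 without A-02 and A-03. SOX2, its partner in the pluripotency network, was 0.32 to 46.4 RPKM in outer morula cells and at most 3.54 RPKM in outer blastocyst cells, and 32.1 and 9.72 RPKM in inner A-03 and A-10 against at most 1.69 RPKM in the other inner cells.

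The signalling ligands appeared in single blastocyst cells. FGF4, the ligand by which epiblast precursors instruct hypoblast in the mouse, was listed at 0 in all 5 inner morula cells and was 548 RPKM in A-03 and 76.9 RPKM in A-10, with at most 2.37 RPKM in the other inner blastocyst cells. Among outer blastocyst cells it was 635 RPKM in A-02 and 93.8 RPKM in A-05 and at most 2.83 RPKM in the rest. NODAL, a ligand of the TGF-beta family, was 91.6 RPKM in inner A-05, 77.4 in A-10 and 3.93 in A-03, and listed at 0 in all 6 outer blastocyst cells. LEFTY1, a Nodal antagonist and target, reached 261 and 63.3 RPKM in inner A-03 and A-10 and 417 RPKM in outer A-09, and no other cell of the 21 exceeded 0.20 RPKM. Inner A-10 held all 3 of these transcripts, and A-03 held FGF4 and LEFTY1 with little NODAL.

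ETV4, a target of FGF signalling, was at most 8.45 RPKM in every morula cell and 6.17 to 762 RPKM in outer blastocyst cells, where 2 blastocyst cells lay below the highest morula cell. Inner ETV4 was at most 0.21 RPKM in the late morula, then 19.7, 218, 198, 0.15 and 53 RPKM. ID1, a target of BMP signalling, was lower without overlap in both positions. Outer ID1 was 19.4, 219, 19.6, 236 and 0.72 RPKM, and 5 of 6 blastocyst cells were listed at 0. Inner ID1 was 25.1, 2.18, 0.73, 4.44 and 1.01 RPKM, and 4 of 5 blastocyst cells were listed at 0. The inner ID1 log2 difference was -2.88, or -1.56 without D-01. Within the letters ID1 was lower in B, with -8.32 and -3.50, and 0.24 in H. ID3, its paralog, was lower without overlap in inner cells, at 97.8, 83.0, 50.1, 1662 and 913 RPKM and then 1.57, 0.77, 23.4, 30.4 and 0.17 RPKM. Outer ID3 overlapped, with a log2 difference of -0.04, or -4.16 without A-09.

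Several hypoblast genes were near 0 in the late morula and present in blastocyst cells of both positions. Of 12 measured genes 9 were higher and 2 lower (HNF4A and SPARC) in outer cells. In inner cells 10 of 12 were higher and 2 lower (HNF4A and LAMA1), or 6 higher without inner A-08. Over all genes 35.8% of outer and 38.6% of inner were higher. Of the higher list genes 3 had no overlap of cells in outer cells and 0 in inner cells. The outer difference of COL4A1 went from 2.63 to 0.70 without A-05. SOX17, an endoderm transcription factor, did not exceed 0.43 RPKM in any morula cell. It was 1051 RPKM in inner A-08 and 96.7 in A-10, and 204, 37.5 and 25.1 RPKM in the outer cells A-06, A-08 and A-09. GATA4, a factor acting with SOX17, was 0.10 RPKM or less in every morula cell and 65.4, 9.95, 28.3, 63.1, 59.4 and 0.31 RPKM in outer blastocyst cells. In inner blastocyst cells GATA4 reached 30.9 RPKM in A-08 and 2.82 or less elsewhere. COL4A2, a basement membrane collagen, was 7.45 to 50.8 RPKM in 5 of 6 outer blastocyst cells and 26.6 and 37.0 RPKM in inner A-08 and A-10. APOA1, a lipoprotein of the hypoblast and yolk sac, was 4388 RPKM in inner A-08, 148 RPKM in A-10 and at most 54.0 RPKM in the other inner cells. NID2, another basement membrane gene, was 386 RPKM in A-08 and below 0.5 RPKM in the other inner blastocyst cells. The inner mean of these genes rests on A-08. Without it the log2 difference of SOX17 went from 7.72 to 4.59, of APOA1 from 8.42 to 4.36 and of NID2 from 5.79 to -0.35. Within letter B the hypoblast list was likewise higher in 12 of 14 outer and 8 of 10 inner genes, and in letter H in 2 of 5. Over all genes 29%, 25.8% and 21.4% were higher in these comparisons.

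**Figure D3:**
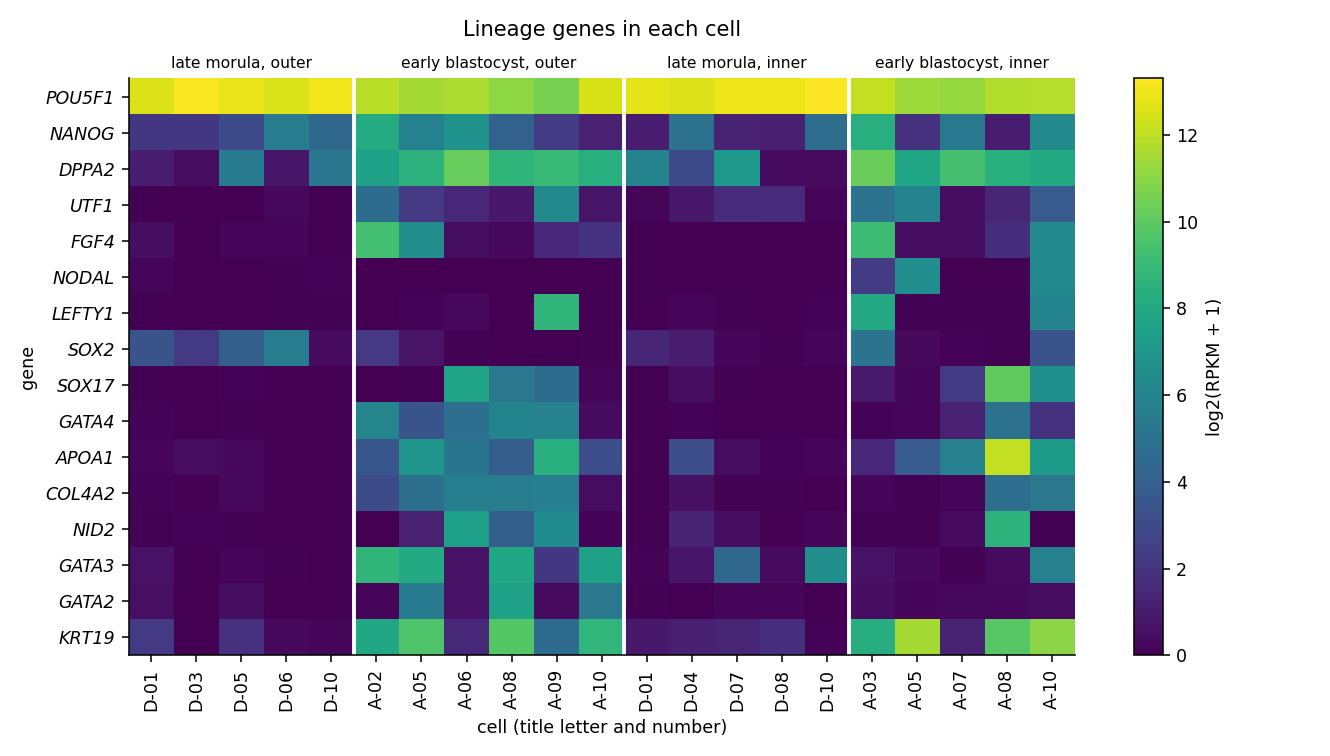
Level of 16 pluripotency, hypoblast and trophectoderm genes (rows) in each of the 21 cells (columns, named by title letter and number and grouped by stage and position), as log2(RPKM + 1). POU5F1 is high in every cell, FGF4, NODAL and LEFTY1 are high in few blastocyst cells, and inner cell A-08 stands out for SOX17, APOA1 and NID2.

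Genes of the p53 and integrated stress responses were lower in the early blastocyst in both positions. These pathways slow the cell cycle or adjust protein synthesis after DNA damage, amino acid shortage or unfolded protein. Of 15 measured members 14 were lower and 0 higher in outer cells, with a median of -3.70 against 0.03 for all genes. In inner cells 13 of 20 were lower and 2 higher (ATF3 and ASNS), with a median of -1.95. Over all genes 34.5% of outer and 30.2% of inner were lower. Some of the lower calls rest on 1 cell. Outer BAX went from -3.70 to 0.05 without D-05 and outer GADD45B from -2.25 to -0.76 without D-10. Inner BTG2 went from -3.77 to -0.86 without D-01 and inner HSPA1A from -1.78 to 0.48 without D-08. The direction of ATF3, a stress-induced transcription factor, rests on inner A-07, at 135 RPKM, without which its log2 difference went from 1.13 to -3.66. ASNS, which makes asparagine, had a log2 difference of 4.16, and of 3.39 without A-07. The number of these genes at 10 RPKM or more was 8 to 13 in each outer morula cell and 1 to 7 in each outer blastocyst cell. In inner cells it was 11 to 16 and then 2 to 10. Within letters the picture was mixed, with 7 of 15 lower and 4 higher in B outer cells and 5 of 14 lower and 8 higher in B inner cells. In H inner cells 13 of 18 were lower and 3 higher. Over all genes 40.3%, 46.3% and 41% were lower in these comparisons, so the B outer count is near that share.

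CDKN1A, the p53 target p21 that holds cells in G1, was 6.09, 1.66, 411, 293 and 540 RPKM in outer morula cells and listed at 0 in all 6 outer blastocyst cells. Inner CDKN1A was 86.1, 65.2, 27.7, 372 and 327 RPKM, then 0.66, 0.28, 8.61, 0 and 0 RPKM, a log2 difference of -5.92 (-7.16 without A-07). PHLDA3, a p53 target that restrains AKT, was 183, 496, 11.6, 65.1 and 550 RPKM in outer morula cells and at most 0.17 RPKM in outer blastocyst cells. In inner cells it was 321, 244, 648, 286 and 599 RPKM, then 0.56, 8.78, 694, 0.56 and 0.53 RPKM. The inner blastocyst cell A-07 alone kept the morula level. Without A-07 the inner PHLDA3 log2 difference went from -1.57 to -6.87 and that of SESN2, a stress-induced sestrin, from -2.51 to -4.62. GDF15, a secreted stress cytokine, was 2.57, 741, 2083, 68.5 and 134 RPKM in outer morula cells and at most 0.27 RPKM in outer blastocyst cells.

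CHAC1, a glutathione-degrading enzyme, was 24.8, 993, 548, 0.56 and 918 RPKM in inner morula cells, and listed at 0 in 4 of 5 inner blastocyst cells with 0.23 RPKM in the other. TRIB3, a pseudokinase induced by the integrated stress response, was 0.63, 177, 463, 1.26 and 182 RPKM in inner morula cells and listed at 0 in all 5 inner and all 6 outer blastocyst cells. ATF4, the transcription factor of this response, was 762, 1503, 1048, 1228 and 2348 RPKM in inner morula cells and 609, 324, 33.4, 36.6 and 221 RPKM in inner blastocyst cells, a log2 difference of -2.49 (-3.16 without A-03). Outer ATF4 overlapped between the stages, and its log2 difference of -1.20 was -0.54 and -0.57 under the other scalings, less than 2-fold. DDIT4, an inhibitor of mTOR signalling, was 155, 365, 1229, 227 and 67.2 RPKM in inner morula cells and at most 0.65 RPKM in inner blastocyst cells. In outer cells it was 10.8 to 351 RPKM in the late morula and 74.7 RPKM in A-08, with at most 0.11 RPKM in the other outer blastocyst cells.

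IER3, an early response gene of stress and growth signals, was 345, 568, 244, 716 and 1399 RPKM in outer morula cells. Of the outer blastocyst cells 5 of 6 were listed at 0 and A-06 had 0.80 RPKM. Inner IER3 was 627, 146, 317, 837 and 490 RPKM and then 1.39, 0, 0, 0.35 and 74.8 RPKM, with the log2 difference of -4.89 reaching -8.40 without A-10. IER3 was lower within the letters too, with log2 differences of -3.10 and -5.43 in B and -7.25 in H. An exception to the direction was TP53I3, a p53-linked oxidoreductase, which was at most 0.46 RPKM in every morula cell. It was 1.26 to 576 RPKM (median 109) in outer blastocyst cells and 229, 326, 0.65, 460 and 52.4 RPKM in inner ones, with no overlap in either position.

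**Figure D4:**
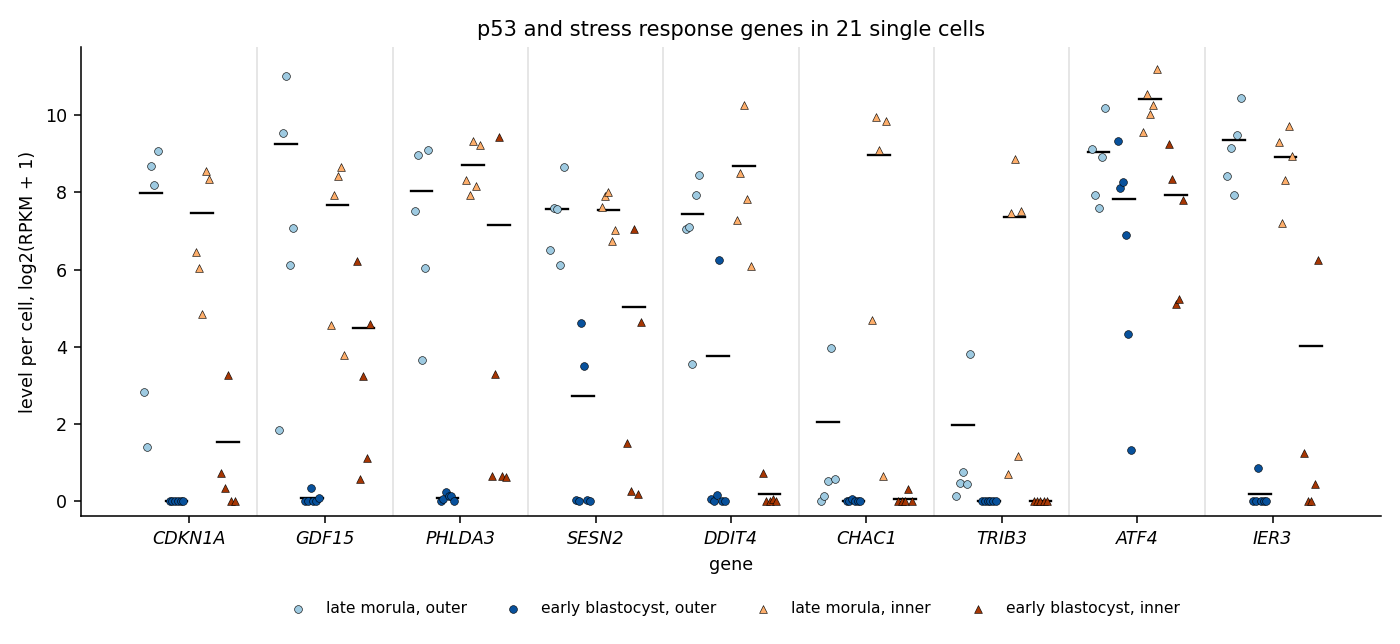
Level of 9 p53 and stress response genes in each of the 21 cells, as log2(RPKM + 1), by stage (pale, late morula; dark, early blastocyst) and position (circles, outer; triangles, inner); black bars mark the log2 of the mean RPKM + 1. Outer blastocyst cells sit at or near 0 for CDKN1A, GDF15, PHLDA3 and IER3, and a single inner blastocyst cell (A-07) stays high for PHLDA3 and SESN2.

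Several of the genes with the widest separation belonged to no list. MT1A, a metal-binding metallothionein, was listed at 0 in 4 of 5 cells of each morula group and at most 0.27 RPKM in the others. In outer blastocyst cells it was 346 to 1540 RPKM (median 752) and in inner ones 1072, 1730, 78.7, 1399 and 3708 RPKM. Its log2 differences were 9.71 and 10.57, and within the letters 3.16 and 5.26 in B and 6.53 in H. Reads of the metallothionein genes, which are near copies of each other, may be split between them. IGFBP6, which binds insulin-like growth factor II, was at most 6.24 RPKM in outer morula and 1.37 RPKM in inner morula cells. It was 20.0 to 4228 RPKM (median 1543) in outer blastocyst cells and 1655, 7536, 6.04, 82.3 and 4210 RPKM in inner ones, so no cells overlapped. ANXA2, a membrane-binding annexin, was at most 4.02 RPKM in outer morula cells and 87.2 to 1250 RPKM (median 669) in outer blastocyst cells. Inner ANXA2 was 34.1, 6.63, 2.05, 1.36 and 0.89 RPKM, then 289, 683, 4424, 483 and 431 RPKM. Both were higher within each letter comparison, IGFBP6 with log2 differences of 8.46 and 12.45 in B and 5.00 in H and ANXA2 with 3.43, 2.79 and 1.25. Inner ANXA2 had a log2 difference of 6.98, or 8.40 without D-01.

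GSDMD, the pore-forming gasdermin D, was listed at 0 in all 10 morula cells. It was 345, 189, 68.3, 28.3, 1.17 and 0.88 RPKM in outer blastocyst cells and 0.16, 4.98, 444, 2.95 and 134 RPKM in inner ones. CAPG, which caps actin filaments, was at most 0.55 RPKM in every morula cell and 1.52 to 261 RPKM (median 135) in outer and 1.41 to 730 RPKM in inner blastocyst cells. Others of the widest differences in both positions were GRB7, an adaptor of receptor tyrosine kinases, with log2 differences of 6.26 (5.43 without A-02) and 5.70, and ANPEP, a cell surface aminopeptidase, with 5.56 (4.96 without A-09) and 6.04. NLRP7, a gene of the oocyte and early embryo, was 231, 80.7, 91.1, 29.9 and 6.27 RPKM in outer morula cells and 772 to 2849 RPKM (median 1112) in outer blastocyst cells. Of the oocyte list 4 of 7 genes were higher and 1 lower in outer cells, against 35.8% and 34.5% of all genes. The outer difference of its member GDF9, 3.15, rests on A-08 and was 0.01 without it. In inner cells 4 of 5 of the list were higher and 0 lower, against 38.6% and 30.2% of all genes. Within letters 2 of 8 were higher and 5 lower in B outer, 4 of 9 higher and 4 lower in B inner, and 2 of 8 higher and 3 lower in H inner cells.

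Some genes separated the stages in 1 position and not in the other. In outer cells alone 28 genes were higher and 93 lower without overlap while the inner difference was under 2-fold, and in inner cells alone the counts were 28 and 108. MPST, a sulfurtransferase, was at most 0.47 RPKM in outer morula cells and 125, 250, 69.0, 435, 1.99 and 1644 RPKM in outer blastocyst cells, a log2 difference of 8.35 (7.10 without A-10). Inner MPST was 152, 130, 0.26, 0.30 and 167 RPKM and then 8.38, 13.4, 0.25, 3.19 and 512 RPKM. BAIAP2L2, which shapes membrane protrusions, was 278, 498, 112, 180 and 356 RPKM in inner morula cells and listed at 0 in 4 of 5 inner blastocyst cells with 0.26 RPKM in the other. Outer BAIAP2L2 was 321 RPKM in D-01 and 1.40 to 7.16 RPKM in the other morula cells, then 0.03 to 182 RPKM. These differences between positions were not tested.

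On the lower side KLRG2, a lectin-like receptor gene, was 5.63, 94.3, 876, 1938 and 863 RPKM in outer morula cells, and 5 of 6 outer blastocyst cells were listed at 0. KHDC1, a gene of early embryonic genome activation, was 24.9, 48.3, 410, 492 and 414 RPKM and then at most 0.30 RPKM in outer cells. Inner KHDC1 overlapped, since inner A-03 had 137 RPKM. CCNA1, the cyclin of meiosis and early cleavage, was 0, 145, 86.6, 65.0 and 93.9 RPKM in outer morula cells and listed at 0 in all 6 outer blastocyst cells. It was at most 0.34 RPKM in inner cells of either stage. Of the genome activation list 3 of 6 were lower and 0 higher in outer cells, and 2 of 5 lower and 1 higher in inner cells. Over all genes 34.5% of outer and 30.2% of inner were lower, not far from these counts for so few members. In letter B 8 of 9 outer and 8 of 8 inner members were lower, against 40.3% and 46.3% of all genes. In letter H 3 of 7 members were lower and 2 higher, against 41% of all genes lower. Reads of KHDC1 and of its near copy KHDC1L may be split between them in the authors' counting.

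Among metabolic genes the glucose transporter SLC2A1 stood out. It was 2.82, 11.2, 12.2, 37.8 and 0.24 RPKM in outer morula cells and 351 to 1637 RPKM (median 824) in outer blastocyst cells, without overlap and with a log2 difference of 6.03 (6.90 without D-06). Inner SLC2A1 was at most 23.5 RPKM in the late morula and 352, 225, 0.88, 235 and 288 RPKM in the early blastocyst. LDHB, which interconverts lactate and pyruvate, was higher without overlap in both positions. Its outer values were 141, 98.2, 155, 295 and 305 RPKM and then 840 to 2621 RPKM (median 1230), and its inner means were 336 ± 186 and 2315 ± 1303 RPKM. Within letter B it was lower, with log2 differences of -0.72 and -2.10. HK2, which phosphorylates glucose, was lower without overlap in inner cells, at 53.7, 131, 146, 40.3 and 89.6 RPKM and then 7.20, 5.60, 5.85, 8.63 and 15.6 RPKM. Of the glycolysis list 8 of 15 were higher and 1 lower in outer cells, and 6 of 15 higher and 2 lower in inner cells, with medians of 1.04 and -0.35. The inner count is near the 38.6% of all genes that were higher. Within letters the list had 6 lower and 5 higher of 17 in B outer and 7 and 5 of 16 in B inner cells. In H inner cells it had 4 lower and 1 higher of 15. Over all genes 40.3%, 46.3% and 41% were lower in these comparisons, so the list was not lower more often than all genes.

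Oxidative phosphorylation genes were higher in 7 and lower in 5 of 22 in outer cells, and higher in 14 and lower in 2 of 25 in inner cells, against 35.8% and 38.6% higher over all genes. In letter B 4 of 24 outer genes were higher and 6 lower, and 5 of 22 inner genes higher and 7 lower, and in letter H 10 of 25 were higher and 5 lower. The ATP synthase subunit ATP5A1 had outer means of 77.1 ± 61.5 and 371 ± 186 RPKM and inner means of 13.4 ± 19.1 and 258 ± 143 RPKM, without overlap in either position. Its log2 differences were 2.25 and 4.17, the latter 5.45 without inner D-01. FABP5, a fatty acid carrier, was 698, 33.1, 23.6, 52.1 and 104 RPKM in outer morula cells and 1587 to 3826 RPKM (median 2329) in outer blastocyst cells. The outer log2 difference was 3.71, or 5.47 without D-01. In inner cells it was 1.60 and dropped to 0.84 without A-03. FABP3, its muscle-type relative, was listed at 0 in all 10 morula cells and reached 293 RPKM in outer A-06 and 136 RPKM in inner A-05. SREBF2, the regulator of cholesterol synthesis, was at most 4.54 RPKM in outer morula cells and 6.06 to 99.1 RPKM in outer blastocyst cells.

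Of the G2/M list 5 of 13 were higher and 2 lower in outer cells, and 7 of 14 higher and 2 lower in inner cells, with medians of -0.03 and 0.97. The DNA replication list had 4 of 12 higher and 1 lower in outer cells and 5 of 12 higher and 2 lower in inner cells, with medians of -0.23 and 0.18. Over all genes 35.8% of outer and 38.6% of inner were higher. In letter B 6 of 13 outer replication genes were lower and 0 higher, and 5 of 12 inner ones lower and 1 higher. In letter H inner cells 9 of 13 were lower and 0 higher. Over all genes 40.3%, 46.3% and 41% were lower in these comparisons, so the letter B counts of lower genes are near that share. The shares of all genes higher were 29%, 25.8% and 21.4%. CKS2, a cyclin-dependent kinase partner, was higher without overlap in inner cells, at 0.16, 1.02, 5.77, 4.18 and 0.68 RPKM and then 15.9, 153, 124, 35.5 and 46.7 RPKM. PCNA, the sliding clamp of DNA replication, was lower, with outer means of 810 ± 228 and 235 ± 254 RPKM and inner means of 765 ± 181 and 356 ± 275 RPKM, and its cells overlapped. Without outer A-02 the outer log2 difference went from -1.78 to -2.51. The inner one of -1.10 was -0.42 and -0.43 under the other scalings, less than 2-fold. PCNA was lower within each letter comparison as well, with -1.62 and -1.18 in B and -2.01 in H.

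**Figure D5:**
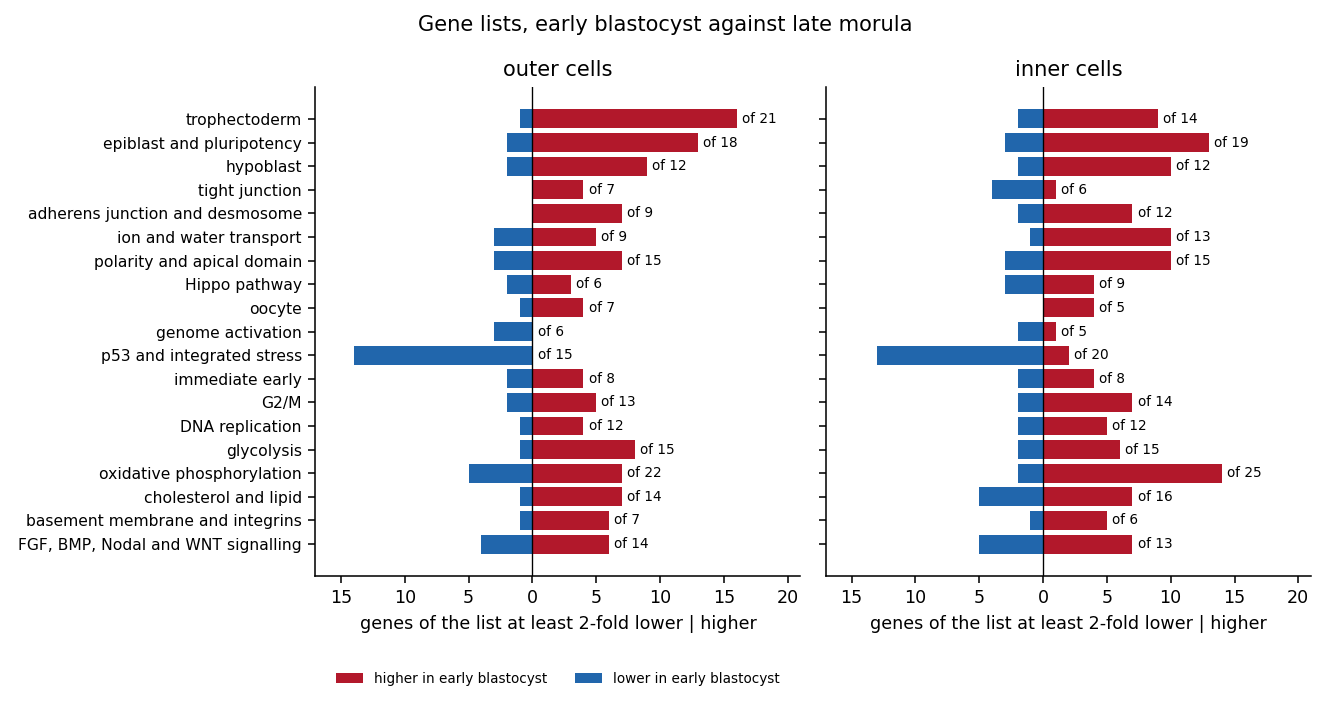
Number of genes in each list at least 2-fold higher (right) or lower (left) in the early blastocyst than in the late morula, for outer cells (left panel) and inner cells (right panel), with the number measured beside each bar. The p53 and integrated stress list is mostly lower in both positions. The tight junction list, with only 7 outer and 6 inner genes measured, differs in direction between them.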

How the data were processed

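Expression was measured in 95 single cells, 1 library each, and 21 of them are compared here. The deposited values are taken as RPKM computed by the authors, read from the values themselves since the table names no unit. Per the submitters' processing notes, FastQC, TopHat2 2.1.0, HTSeq and DESeq2 were used, with no role given. No UMIs are described, so PCR copies are not told apart from molecules. All 95 value columns matched a sample, and 0 were left over.

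Groups came from the titles. With python 3.11.15, pandas 2.3.3 and numpy 2.4.6, log2((mean RPKM + 1)/(mean RPKM + 1)) was computed, with a pseudocount of 1 RPKM, for genes at a mean of 5 RPKM or more in either group. No test was made: DESeq2 and edgeR were not run here. Reads per cell were recovered from the steps of low values for 13042 of 16049 genes (81.3%), within 0.05 of a whole read. The comparison code was checked on simulated data. The members and the 23 gene lists were chosen with earlier results of these data known. Named genes are the 12 of widest log2 difference without overlap per direction and position and over both positions, 4 per list, and a set of lineage, junction and pump genes. Others were named after their values were seen. Alternatives changed the pseudocount, filter, scaling, summary and cells. GATA6 and sequences are not analysed here.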

Additional observations from a re-analysis of the deposited data

Results flagged for a closer look

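Of 356 groups of 4 to 10 cells examined, on the log2(RPKM + 1) scale for genes, 32 had a cell farther from the rest than Dixon's 95% limit. For normally distributed values chance flags about 1 in 20 groups. Many values here are at or near 0, so that rate may not hold. In the outer late morula, D-01 stood apart with high KRT8 (32.4 RPKM), CDX2 (32.6), S100P (141) and BAIAP2L2 (321), and with low PGK1 (1.35) and CCNA1 (0). Outer D-10 was high for KRT18 (331) and EPCAM (51.5). In the outer early blastocyst, A-10 was low for EPCAM (6.50), IGFBP6 (20.0), TP53I3 (1.26) and PGK1 (3.57) and high for ETV4 (762). Outer A-08 was high for DDIT4 (74.7), A-09 for LEFTY1 (417), and in A-02 the 50 most abundant genes took 51.0% of the summed RPKM.

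Among inner late morula cells, D-10 was low for GAPDH (1262 RPKM) and KHDC1L (320.5) and high for CDH1 (97.8). Inner D-08 was high for NF2 (93.9) and KHDC3L (30.2), and D-01 was low for MT2A (7.34). Among inner early blastocyst cells, A-10 was high for GATA3 (53.6), CDX2 (41.5), CDH1 (115), IER3 (74.8) and ATP1B1 (58.3). Inner A-07 was low for KRT8 (1157) and SLC2A1 (0.88) and high for YAP1 (35.4). Inner A-08 was high for NID2 (386), and A-03 had the fewest recovered reads (1.75 megareads).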

How the results depend on the processing

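No paired analysis was possible because the results come from no test and the labels tie no cell of one stage to a cell of the other. With a minimum mean of 20 RPKM, which leaves fewer genes, 1107 genes were higher and 1148 lower in outer cells and 1166 and 954 in inner cells, of which 236 inner genes were lower without overlap. The lists then held 8 higher epiblast and 5 higher hypoblast genes in outer cells and 6 higher hypoblast genes in inner cells. With the median RPKM of the cells in place of the mean, 1112 outer and 875 inner genes were higher and 182 outer genes were lower without overlap. Higher genes then numbered 9 for trophectoderm and 7 for epiblast in outer cells, and 7 for epiblast and 2 for hypoblast in inner cells. The inner log2 differences reversed to -0.07 for CDX2, -0.20 for ATP1B1 and -0.17 for NID2. Without outer A-08, outer A-10 and inner A-03, an alternative chosen after seeing the data, 223 outer genes were higher and 544 lower without overlap, and 8 epiblast genes were higher in inner cells. With letters G and H added, 53 inner genes were higher and 152 lower without overlap, and CLDN3 was 1.06.

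Leaving out 1 cell at a time, genes without overlap ran from 140 to 207 higher and 284 to 457 lower in outer cells. In inner cells they ran from 157 to 212 higher and 371 to 502 lower. Such counts tend to rise with fewer cells and to fall with more, since overlap then becomes less or more likely. Higher inner epiblast genes ran from 8 to 14 and hypoblast genes from 6 to 10. The log2 difference of outer CDX2 ran from -0.58 (without A-05) to 4.19. In inner cells GATA3 ran from -4.23 to 0.86 (without morula cell D-10), NID2 from -0.35 (without A-08) to 6.11, CDX2 from -0.06 (without A-10) to 3.39 and ATP1B1 from -0.20 (without A-10) to 3.73. The cause of these shifts was not tested. Counts of trophectoderm genes higher and p53 and stress genes lower in inner cells stayed within 1.5 times under the alternatives run. The shallow cells limit what can be said of genes below a few RPKM.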

Other observations

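Metallothioneins, small proteins that bind zinc and copper, were higher as a family, which was chosen after its values were seen. All 9 measured members were higher in outer cells, 8 of them without overlap, with a median log2 difference of 4.61. In inner cells all 10 measured members were higher, 4 without overlap, with a median of 4.31. Over all genes 35.8% of outer and 38.6% of inner were higher, and 2.47% and 2.76% were higher without overlap. The counts of higher metallothioneins, 9 and 10, were the same under both other scalings. Within letter B 9 of 9 outer and 10 of 10 inner members were higher, and within letter H 10 of 10. Over all genes 29%, 25.8% and 21.4% were higher in these comparisons. MT2A was 20.2, 2.17, 3.79, 6.80 and 51.5 RPKM in outer morula cells and 85.8 to 748 RPKM (median 188) in outer blastocyst cells. Inner MT2A overlapped, at 7.34, 162, 164, 80.1 and 193 RPKM and then 2037, 1141, 107, 85.7 and 223 RPKM. Near-identical copies make the split between single members uncertain.

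Ribosomal protein genes took a median of 25.5% of the summed RPKM in outer morula cells and 15.7% in outer blastocyst cells, and 24.3% and 16.2% in inner cells. Of 71 measured in outer cells 11 were higher and 22 were lower, against 35.8% and 34.5% of all genes, the median being -0.58. With median-of-ratios factors 18 were higher and 9 lower, and with factors from genes above 0 in all cells 15 and 12. In inner cells 21 of 72 were higher and 11 lower, against 38.6% and 30.2% of all genes, with a median of 0.42. Under the same scalings the inner counts were 29 and 5, then 34 and 4. These scalings also raised the median of all genes. Within letter B 1 of 72 was higher and 42 lower in outer cells and 0 of 73 higher and 46 lower in inner cells. Within letter H 48 of 74 were higher and 2 lower. Over all genes 29%, 25.8% and 21.4% were higher in these comparisons, and 40.3%, 46.3% and 41% lower. Annexins were higher in 6 of 7 in outer and 3 of 5 in inner cells, with 1 lower in the latter, against 35.8% and 38.6% of all genes higher. Within letters 3 of 6 annexins were higher and 2 lower in B outer, 1 of 5 higher and 3 lower in B inner, and 2 of 6 higher and 2 lower in H inner cells. Genes whose symbols begin with S100, most of which encode calcium-binding proteins, were higher in 6 of 7 in outer and 3 of 5 in inner cells, and 0 were lower. In letter B 3 of 5 outer genes were higher and 0 lower and 3 of 6 inner genes higher and 2 lower, and in letter H 2 of 6 were higher and 2 lower.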
